A study of Mus musculus with 8 samples.

Results

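The Rosa26 locus lies on mouse chromosome 6 and holds 3 genes whose ends touch or nearly touch: the non-coding transcript Gt(ROSA)26Sor and its neighbours Thumpd3 and Setd5. These 3 genes, of 38355 in the count tables, were chosen by their position. The choice was made with their levels in these same tumours known, so the difference between the genotypes in the 3 genes is given as a description. All 3 had enough reads to be among the 16539 genes tested across the genome. RNA was sequenced from 8 whole colon tumours, each from a different mouse treated with azoxymethane, a colon carcinogen. The Trp53ΔIEC group had 4 tumours and the Trp53ΔIECAktE17K group had 4. ΔIEC is the field's notation for loss of a gene in intestinal epithelial cells, here of the tumour suppressor gene Trp53 in both groups. The second group also carries AktE17K, which encodes AKT with an activating amino acid change. What drives Cre, how old the mice were and where in the genome the AktE17K allele lies were not given in the sources used here.

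Rosa26 was found in a gene trap screen in mouse embryonic stem cells and is transcribed in most cell types. Its transcript has no known protein product, and mice tolerate its disruption. For these reasons the locus is a standard place to insert transgenes, which are usually put into the intron that follows exon 1 of Gt(ROSA)26Sor, often behind a stop cassette that Cre recombinase removes. An insertion of that kind can end the host transcript early on the targeted chromosome. Thumpd3 encodes a methyltransferase that, together with TRMT112, modifies guanosine in transfer RNA. Setd5 encodes a SET domain protein that associates with the HDAC3 and NCoR co-repressors and with the PAF1 complex of transcribing RNA polymerase II.

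In the GENCODE M21 annotation of GRCm38 (mm10), Gt(ROSA)26Sor (ENSMUSG00000086429) lies on the minus strand at chr6:113067428-113077333 and is classed as antisense RNA with 4 transcripts. Setd5 (ENSMUSG00000034269) lies on the plus strand at chr6:113077365-113153435, so that the starts of the divergent genes are separated by 31 bases. Thumpd3 (ENSMUSG00000030264) lies on the plus strand at chr6:113046225-113068273, and its last 846 bases run under the 3′ end of Gt(ROSA)26Sor. In exons this overlap comes to 145 bases, which is 8.55% of the 1695 exonic bases of Gt(ROSA)26Sor. No exonic base of Setd5 is shared with another gene. The library kit does not record the strand, and reads from the shared stretch cannot be told apart by gene.

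**Figure D1:**
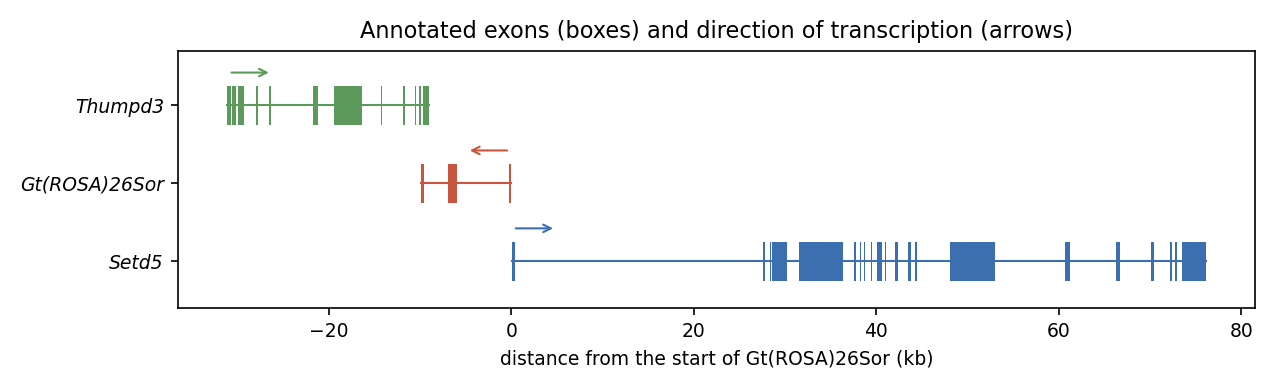
Exons (boxes) and direction of transcription (arrows) of the 3 genes, by distance in kb from the start of Gt(ROSA)26Sor. Setd5 runs away from that start on the other strand, and the end of Thumpd3 overlaps the end of Gt(ROSA)26Sor.

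Parts of the annotated Rosa26 transcripts are shown as sequence, and they do not cover all exonic bases of the gene. The annotation gives exon 1 several forms. Each is spliced to exon 2, of which 142 bases at chr6:113071294-113071435 are present in all 4 transcripts and overlap no other gene. The sequence below joins exon 1 of ENSMUST00000124246 (chr6:113077068-113077210, minus strand, lower case) to that common part of exon 2 (capitals). The intron removed at the change of case is the one in which transgenes are usually placed. The other sequence is exon 1 of ENSMUST00000159544 (chr6:113077174-113077333, minus strand), whose start is the one nearest to Setd5. Its capitals mark the 37 bases that it shares with the other form of exon 1. Of its 160 bases 71.9% are G or C, and it holds 16 CG dinucleotides. Both are GENCODE M21 transcript sequences, printed 5′ to 3′.
Exon 1 joined to exon 2: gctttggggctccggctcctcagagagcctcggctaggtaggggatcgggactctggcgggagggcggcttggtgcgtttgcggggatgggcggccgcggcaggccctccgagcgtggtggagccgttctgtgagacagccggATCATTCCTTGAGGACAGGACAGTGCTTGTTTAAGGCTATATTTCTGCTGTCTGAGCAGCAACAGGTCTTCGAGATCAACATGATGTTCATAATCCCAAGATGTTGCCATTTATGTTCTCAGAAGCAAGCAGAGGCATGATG
Exon 1 nearest to Setd5: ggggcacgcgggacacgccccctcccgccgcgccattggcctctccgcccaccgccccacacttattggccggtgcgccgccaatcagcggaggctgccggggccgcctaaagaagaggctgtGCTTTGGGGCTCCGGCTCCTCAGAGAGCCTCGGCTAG

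Assigned reads per tumour ranged from 18572180 to 26268547. Levels are counts scaled to a common library size (CPM, with trimmed-mean or TMM factors), and fold changes are Trp53ΔIECAktE17K over Trp53ΔIEC. Genes with a Benjamini-Hochberg adjusted p under 0.05 in edgeR's quasi-likelihood test over all genes are called. Counts per gene in a whole tumour do not show alleles and so do not check either genotype: Trp53 ranged from 20.8 to 25.8 CPM in Trp53ΔIEC and from 24.8 to 37.1 CPM in Trp53ΔIECAktE17K tumours (adjusted p = 0.407), and Akt1 from 383.0 to 430.2 CPM and from 338.2 to 409.6 CPM (adjusted p = 0.669).

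The Rosa26 transcript was lower in every Trp53ΔIECAktE17K tumour than in every Trp53ΔIEC tumour. Gt(ROSA)26Sor was at 32.3, 29.3, 39.6 and 43.3 CPM in Trp53ΔIEC replicates 1 to 4. In Trp53ΔIECAktE17K replicates 1 to 4 it was at 19.3, 22.1, 19.7 and 21.3 CPM. The highest Trp53ΔIECAktE17K tumour lay below the lowest Trp53ΔIEC tumour. The means were 36.1 ± 6.43 and 20.6 ± 1.33 CPM (SD, n = 4 each), so that the Trp53ΔIECAktE17K mean was 57.1% of the other. Taken singly, the 4 Trp53ΔIECAktE17K tumours were at 53.6% to 61.3% of the Trp53ΔIEC mean. The log2 fold change was -0.81 ± 0.16 (SE), with a 95% interval of -1.18 to -0.44, which corresponds to 44.3% to 73.8% of the Trp53ΔIEC level.

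Spread differed between the groups for this gene. The coefficient of variation was 17.8% among Trp53ΔIEC tumours and 6.44% among Trp53ΔIECAktE17K tumours. The level rested on 708 to 930 reads per Trp53ΔIEC tumour and on 457 to 538 reads per Trp53ΔIECAktE17K tumour. Counting error alone amounts to 3.28% to 3.76% and 4.31% to 4.68% at those depths, treating reads as independent molecules. Whether the spread of the groups differed was not tested.

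Thumpd3, which overlaps the 3′ end of the Rosa26 transcript, had overlapping ranges. It was at 75.8, 49.6, 54.2 and 56.8 CPM in Trp53ΔIEC replicates 1 to 4 and at 56.4, 51.1, 69.6 and 54.4 CPM in Trp53ΔIECAktE17K replicates 1 to 4. The highest level of each group was in Trp53ΔIEC replicate 1 and Trp53ΔIECAktE17K replicate 3. The means were 59.1 ± 11.5 and 57.9 ± 8.11 CPM (SD, n = 4 each). The log2 fold change was -0.03 ± 0.17 (SE), and its 95% interval of -0.41 to 0.35 spans levels from 75.2% to 128% of the Trp53ΔIEC level.

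Setd5, transcribed away from the shared start region, also had overlapping ranges and was the steadiest of the 3 genes by coefficient of variation, at 9.53% and 4.66%. It was at 146.4, 118.2, 143.5 and 143.0 CPM in Trp53ΔIEC replicates 1 to 4 and at 130.9, 134.3, 142.2 and 127.7 CPM in Trp53ΔIECAktE17K replicates 1 to 4. Trp53ΔIEC replicate 2 was the lowest of the 8 tumours, and the other 7 lay between 127.7 and 146.4 CPM. The means were 137.8 ± 13.1 and 133.8 ± 6.23 CPM (SD, n = 4 each). The log2 fold change was -0.04 ± 0.11 (SE), with a 95% interval of -0.29 to 0.21, or 81.5% to 116% of the Trp53ΔIEC level.

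**Figure D2:**
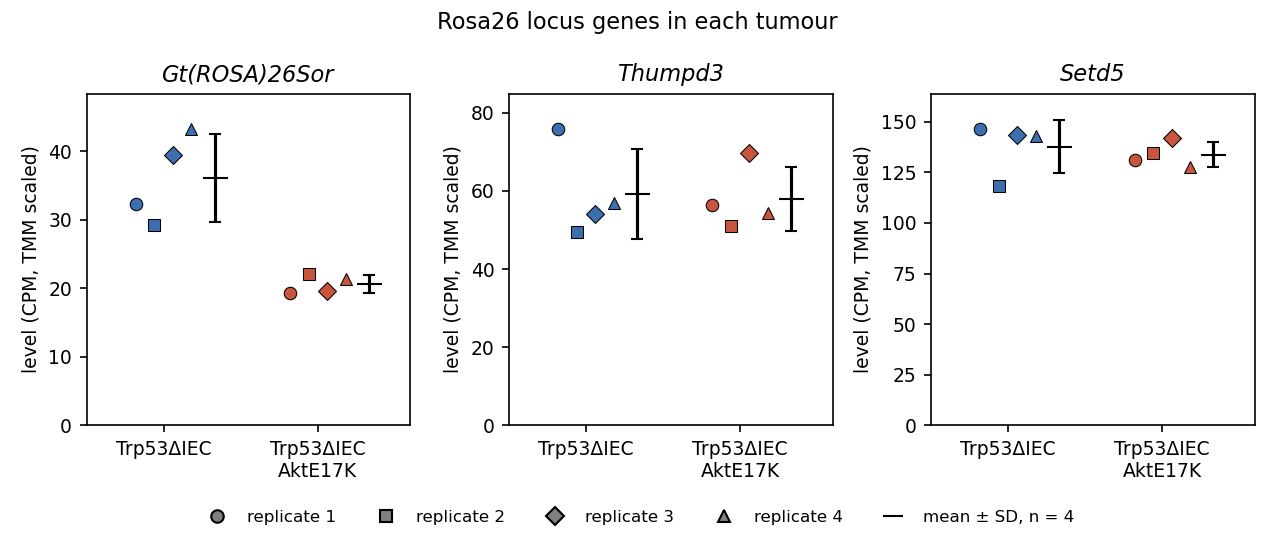
Level in CPM of each gene in each of the 8 tumours (symbols give the replicate), with the mean and SD of each group of 4. The Gt(ROSA)26Sor points of the groups do not overlap (29.3 to 43.3 against 19.3 to 22.1 CPM), while those of Thumpd3 and Setd5 do.

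Of the 3 genes 1 was called, Gt(ROSA)26Sor, and it was lower. Over all 16539 genes tested 4.2% were called, 3.44% higher and 0.756% lower. The same gene was the 1 of 3 whose groups did not overlap, against 5.88% of all tested genes that lay lower and 8.34% that lay higher without overlap. Because the genes were proposed with this contrast in view, nothing is read from these counts. The log2 fold change of Gt(ROSA)26Sor stayed between -0.90 and -0.71 when any 1 tumour was left out. Its call was lost in 7 of those 8 fits, all except the one without Trp53ΔIECAktE17K replicate 4.

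Ratios between the genes within a tumour do not depend on how libraries are scaled. For every 100 reads of Setd5, Gt(ROSA)26Sor had 22.1, 24.8, 27.6 and 30.3 reads in Trp53ΔIEC replicates 1 to 4 and 14.8, 16.5, 13.9 and 16.7 reads in Trp53ΔIECAktE17K replicates 1 to 4. These ranges did not overlap. The log2 ratio was -1.94 ± 0.20 and -2.70 ± 0.13 (SD, n = 4 each), a difference of -0.75. Relative to Thumpd3 the difference in the log2 ratio was -0.77, from -0.71 ± 0.38 to -1.48 ± 0.27 (SD, n = 4 each), and here the groups overlapped. The overlap came from Trp53ΔIEC replicate 1, with 42.7 reads of Gt(ROSA)26Sor per 100 of Thumpd3, and Trp53ΔIECAktE17K replicate 2, with 43.3. The log2 ratio of the neighbours to each other, Thumpd3 over Setd5, was -1.23 ± 0.20 and -1.22 ± 0.15 (SD, n = 4 each), a difference of 0.02.

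**Figure D3:**
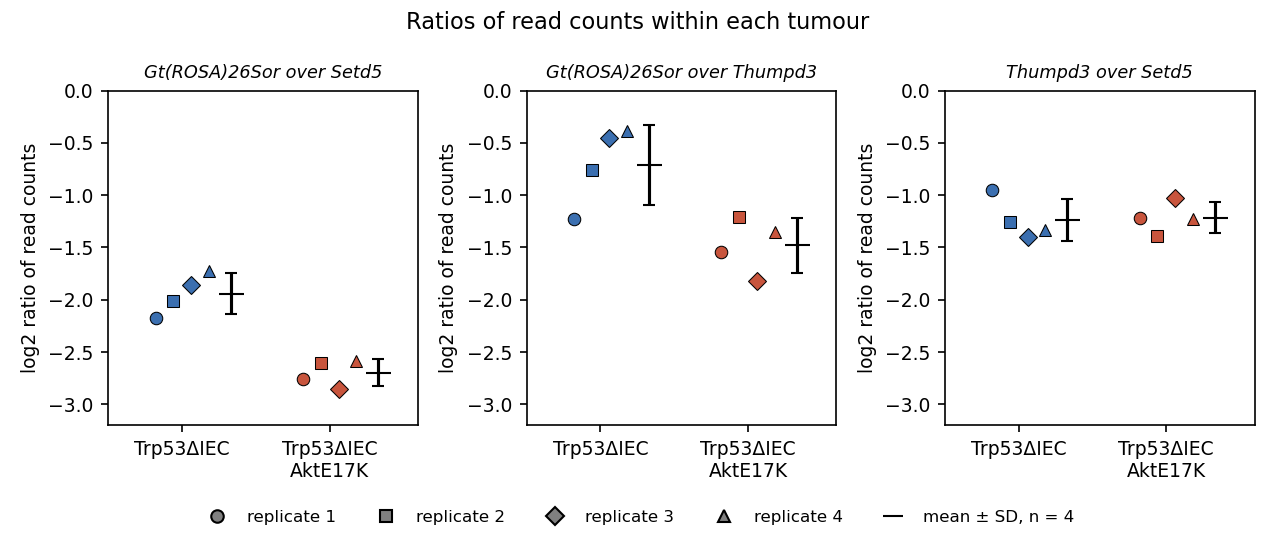
The log2 ratio of read counts between pairs of the 3 genes in each tumour (symbols give the replicate), with the mean and SD of each group of 4. Gt(ROSA)26Sor over Setd5 is lower in all 4 Trp53ΔIECAktE17K tumours, and Thumpd3 over Setd5 has means of -1.23 and -1.22.

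Levels of the 3 genes can be set side by side only per length, and the order then depends on the length used. Over the exons of transcripts other than retained introns, without bases shared with another gene, the lengths are 1.55 kb for Gt(ROSA)26Sor, 2.91 kb for Thumpd3 and 8.05 kb for Setd5. This set of exons was chosen after seeing the data. On that scale the Trp53ΔIEC tumours had 23.3 ± 4.15, 20.3 ± 3.96 and 17.1 ± 1.63 CPM per kb (SD, n = 4 each). Neighbours in that order differed by less than the SD of Gt(ROSA)26Sor or Thumpd3. In Trp53ΔIECAktE17K tumours Gt(ROSA)26Sor was the lowest, at 13.3 ± 0.857 CPM per kb, below Setd5 at 16.6 ± 0.774 and Thumpd3 at 19.9 ± 2.79 (SD, n = 4 each). With retained-intron transcripts included, Thumpd3 and Setd5 lengthen to 6.30 and 18.3 kb. Gt(ROSA)26Sor then has the highest level per kb in both groups, at 23.3 and 13.3 CPM per kb against 9.38 and 9.18 for Thumpd3.

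Once the group means were removed, the 3 genes did not share 1 pattern among the tumours. Over the 8 tumours the Pearson correlation of log2 CPM was 0.68 between Thumpd3 and Setd5, 0.52 between Gt(ROSA)26Sor and Setd5 and -0.19 between Gt(ROSA)26Sor and Thumpd3. These are descriptions of 8 points from the same libraries. Trp53ΔIEC replicate 1 had the highest Thumpd3 of its group, 0.38 above the group mean on the log2 scale, and Gt(ROSA)26Sor 0.14 below it. Trp53ΔIEC replicate 2 was the lowest of its group in all 3 genes.

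Of 11496 genes with an average log2 CPM of at least 3, those most like Gt(ROSA)26Sor by this correlation were Fam110c, Mki67, Cenpl, Plekhf1 and Cdc7, with r of 0.96 to 0.97 over 8 tumours. Mki67 encodes the proliferation antigen Ki-67, Cenpl a centromere protein and Cdc7 a kinase of replication origins. Between the genotypes the log2 fold change was -0.45 for Mki67, -0.10 for Cenpl and 0.18 for Cdc7, and none of these was called (edgeR adjusted p = 0.226, 0.838 and 0.742). Genes most like Thumpd3 were Mtpap, Plekhg5, Top1mt, Mcrs1 and Ddr1 (r of 0.97 to 0.98). Mtpap is the mitochondrial poly(A) polymerase gene and Top1mt the mitochondrial topoisomerase gene. Genes most like Setd5 were Impa2, Fam83d, Syne2, Sgo2a and ENSMUSG00000090663, which has no symbol in the annotation used (r of 0.96 to 0.97). Sgo2a encodes a shugoshin that protects centromeric cohesion. With 8 tumours and 11496 genes, high correlations are common, and the ranking is given as a description.

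None of the other genes within 500 kb of the locus was called. Within 500 kb on either side lie 29 other genes, taking those whose whole annotated body is in the window. Of the 29, 18 had enough reads to be tested, 3 on the side of Thumpd3 and 15 on the side of Setd5. None of the 18 was called by edgeR, by DESeq2 or by limma-voom, and 0 were under an unadjusted p of 0.05. Over all genes tested the shares were 4.2% called by edgeR, 13.2% by DESeq2 and 3.31% by limma-voom, and 20.8% under an unadjusted p of 0.05. The 0 calls by edgeR or limma-voom among 18 genes are near the background. By DESeq2 and by unadjusted p, 0 of 18 lies below the share over all genes, and that difference was not tested. In these 18 genes 9 log2 fold changes were negative and 9 positive, with a median of -0.01 beside 0.01 for all genes tested and a lowest value of -0.30. The groups overlapped in each of the 18, while over all genes tested 5.88% lay lower and 8.34% higher without overlap. A test of Gt(ROSA)26Sor against these neighbours was not made, since its own value was known when it was chosen.

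The tested genes nearest to the locus can be given by name. Srgap3, which encodes a GTPase-activating protein for Rac and starts 130.1 kb from the Rosa26 start beyond Thumpd3, was at 8.99 ± 7.30 and 18.8 ± 10.1 CPM (SD, n = 4 each, edgeR adjusted p = 0.341). Beyond it lie Rad18, a ubiquitin ligase gene of DNA damage tolerance, and the non-coding Gm26799, at -0.12 and 0.15 on the log2 fold change scale (edgeR adjusted p = 0.828 and 0.846). On the side of Setd5 the nearest tested gene was the phosphatase gene Mtmr14, 160.5 kb away, at 47.1 ± 3.64 and 40.5 ± 7.56 CPM (SD, n = 4 each, edgeR adjusted p = 0.465). After it come Brpf1, a subunit of histone acetyltransferase complexes, Ogg1, the glycosylase gene that removes oxidised guanine, Camk1, a calmodulin-dependent kinase gene, and Tada3, an adaptor of histone acetylation. Their log2 fold changes were -0.16, -0.08, -0.20 and -0.30 (edgeR adjusted p = 0.468, 0.847, 0.488 and 0.254). Within 1 Mb of the locus 1 of 30 tested genes was called, Lmcd1, named after its value was seen. Lmcd1 starts 803.6 kb away and rose from 7.21 ± 2.07 to 27.2 ± 8.59 CPM (SD, n = 4 each, edgeR adjusted p = 0.0172). DESeq2 called 4 of the 30, 3 higher and 1 lower, and limma-voom 1, shares near those over all genes (13.2% and 3.31%).

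**Figure D4:**
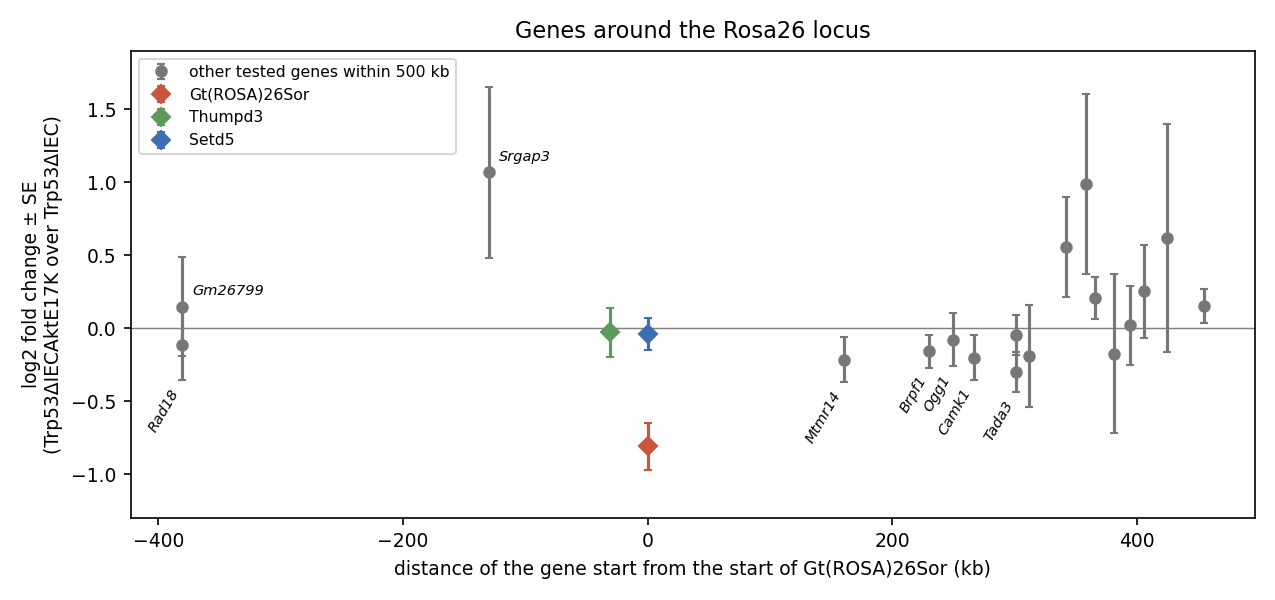
The log2 fold change (points) and SE (bars) of the 3 locus genes and of 18 other tested genes. The 18 are those whose whole body lies within 500 kb, and distance is from the start of Gt(ROSA)26Sor to each gene's start. Gt(ROSA)26Sor lies at -0.81, and the lowest of the 18 others at -0.30.

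Genes that work with THUMPD3 and SETD5 or are related to them were read against the shares over all genes given for the neighbourhood. Of 12 genes for TRMT112, its partners, the other THUMP domain proteins and further transfer RNA methylation enzymes, 0 were called by edgeR, DESeq2 and limma-voom and 0 had an unadjusted p under 0.05. With 4.2% of all genes called by edgeR and 3.31% by limma-voom, 0 of 12 is near the background. It lies below the 13.2% called by DESeq2 and the 20.8% under that unadjusted p, and this difference was not tested. Their median log2 fold change was 0.02, with 7 positive and 5 negative. Trmt112 itself was at 3.73 ± 0.346 and 3.92 ± 0.964 CPM (SD, n = 4 each). N6amt1 and Alkbh8, both methyltransferase genes whose products bind TRMT112, were at -0.39 and -0.38 on the log2 fold change scale (edgeR adjusted p = 0.299 and 0.279).

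The SETD5 list held 13 genes: those of the HDAC3 and NCoR complex and the PAF1 complex, and Kmt2e and Setd2 as related SET domain genes. Of these 13, edgeR called 0, with 2 under an unadjusted p of 0.05, while DESeq2 called 2 as lower and limma-voom 0. Over all genes 20.8% were under that unadjusted p and DESeq2 called 13.2%, so these counts are near the background. The median log2 fold change was -0.12, with 9 negative and 4 positive. The smallest unadjusted p were those of a pair of PAF1 complex genes whose groups did not overlap. Over all genes tested 5.88% lay lower and 8.34% higher without overlap, so the pair among 13 genes is given as a description. Ctr9 was at 127.6 ± 8.51 and 95.2 ± 5.89 CPM (SD, n = 4 each, edgeR adjusted p = 0.0611). Cdc73 was at 86.2 ± 3.95 and 70.9 ± 3.26 CPM (SD, n = 4 each, edgeR adjusted p = 0.139).

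Genes at or beside other loci used for transgenes, and widely expressed genes, served as a comparison with the Rosa26 transcript. Of 8 genes of the first kind (Hprt, Ppp1r12c, Eif4enif1, Drg1, Actb, Col1a1, Eef1a1 and Polr2a) 1 was called by edgeR, against 4.2% of all genes: the collagen gene Col1a1. It rose from 711.4 ± 262.5 to 1848 ± 471.6 CPM (SD, n = 4 each, edgeR adjusted p = 0.0419), as did other fibroblast genes. That call was lost without Trp53ΔIEC replicate 2, 3 or 4 and without Trp53ΔIECAktE17K replicate 1 or 2, when the list had 0 calls. Eif4enif1, named after its values were seen, was lower without overlap of the groups, at 101.9 ± 8.97 and 83.4 ± 3.92 CPM (SD, n = 4 each), and was not called (edgeR adjusted p = 0.163). Of all genes tested 5.88% lay lower without overlap. DESeq2 called 1 gene of the list higher and 1 lower, against 13.2% of all genes in both directions. Over the 8 genes the median log2 fold change was -0.003. Of 12 reference genes 0 were called by edgeR, DESeq2 and limma-voom, and 1 had an unadjusted p under 0.05. Over all genes these shares were 4.2%, 13.2%, 3.31% and 20.8%, and a difference from them was not tested. The median log2 fold change of the 12 reference genes was -0.003. The lowest log2 fold change among them was -0.36. Pgk1 and Sdha, enzymes of glycolysis and of the respiratory chain, had the smallest unadjusted p, at 0.46 and -0.28 on the log2 scale (edgeR adjusted p = 0.204 and 0.293).

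Markers of several cell types were at different levels in the groups, and in bulk RNA fewer cells of a type and less RNA per cell cannot be told apart. Over all genes edgeR called 4.2%, DESeq2 13.2% and limma-voom 3.31%, and 20.8% had an unadjusted edgeR p under 0.05. The summed level of 7 epithelial markers was 9230 to 11400 CPM in Trp53ΔIEC and 5380 to 10500 CPM in Trp53ΔIECAktE17K tumours. None of the 7 was called by edgeR or limma-voom, DESeq2 called 2 as lower, 4 had an unadjusted p under 0.05, and all 7 log2 fold changes were negative, among them those of Epcam (-0.595, edgeR adjusted p = 0.140) and of the brush border gene Vil1 (-1.21, adjusted p = 0.138). In Trp53ΔIEC replicates 1 to 4 the epithelial sums were 9330, 9229, 10820 and 11440 CPM, with Gt(ROSA)26Sor at 32.3, 29.3, 39.6 and 43.3 CPM. In Trp53ΔIECAktE17K replicates 1 to 4 they were 5729, 7745, 5378 and 10470 CPM, with Gt(ROSA)26Sor at 19.3, 22.1, 19.7 and 21.3 CPM. The sum of 7 fibroblast and smooth muscle markers was 1200 to 2010 and 3190 to 4790 CPM. By edgeR 6 of the 7 were called higher, among them Des, Cnn1, Acta2 and Col1a2. DESeq2 called 6 higher and limma-voom 5. For Des and Cnn1 the log2 fold change was 3.81 and 3.13. The sum of 6 leukocyte markers overlapped, at 325 to 807 and 285 to 773 CPM, and 0 of 6, Cd3e and Adgre1 included, were called by edgeR, DESeq2 and limma-voom, with 0 under an unadjusted p of 0.05. Of 6 heart muscle markers 4 (Myh6, Actc1, Myl2 and Tnni3) were called higher by edgeR, and 4 each by DESeq2 and limma-voom. The sums of the 6 were 36.6 to 115 and 142 to 208 CPM. Most of the Trp53ΔIEC sums was Tnnt2 and Myl7, which were not called (edgeR adjusted p = 0.489 and 0.789). Tnnt2 was at 18.9 ± 8.78 and 28.3 ± 13.3 CPM (SD, n = 4 each). Myl7 lay the other way, at 43.2 ± 40.3 and 32.8 ± 19.9 CPM (SD, n = 4 each). Of 5 tested hepatocyte markers 1 (Crp) was called lower by edgeR, 2 by DESeq2 and 1 by limma-voom. The sums of all 6 were 29.5 to 44.5 and 8.4 to 18.5 CPM. In Trp53ΔIEC tumours most of that sum was Alb, which was at 25.7 ± 6.21 CPM there and 5.18 ± 3.57 CPM in Trp53ΔIECAktE17K tumours (SD, n = 4 each, edgeR adjusted p = 0.0866). Ahsg lay the other way, at 2.02 ± 0.453 and 6.18 ± 4.75 CPM (SD, n = 4 each, edgeR adjusted p = 0.219). Tnnt2, Myl7, Alb and Ahsg were named after their values were seen. No marker of these 5 lists was at 0 in all tumours of a group. Crp and Serpina1c, however, each had only 1 read in Trp53ΔIECAktE17K replicate 1 and 0 in the rest of that group. The part of these cell types in the level of Gt(ROSA)26Sor was not tested.

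Across the 15 alternative fits, Gt(ROSA)26Sor had a log2 fold change between -0.90 and -0.71, and it was called in 6 of them. Setd5 was between -0.11 and -0.02 and called in 0, and Thumpd3 was between -0.13 and 0.11, with its sign turning, and called in 0. Titles also carry a letter of unstated meaning, A in Trp53ΔIECAktE17K replicates 1 and 2 and B in all others. The names of the deposited tables instead carry A for all 4 Trp53ΔIECAktE17K tumours, in which case letter and genotype cannot be told apart. Among the tumours titled B, the 2 of Trp53ΔIECAktE17K had Gt(ROSA)26Sor at 19.7 and 21.3 CPM and the 4 of Trp53ΔIEC at 29.3 to 43.3 CPM. Fitted with the title letter, Gt(ROSA)26Sor had a log2 fold change of -0.82 ± 0.22 (SE) and was not called.

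**Figure D5:**
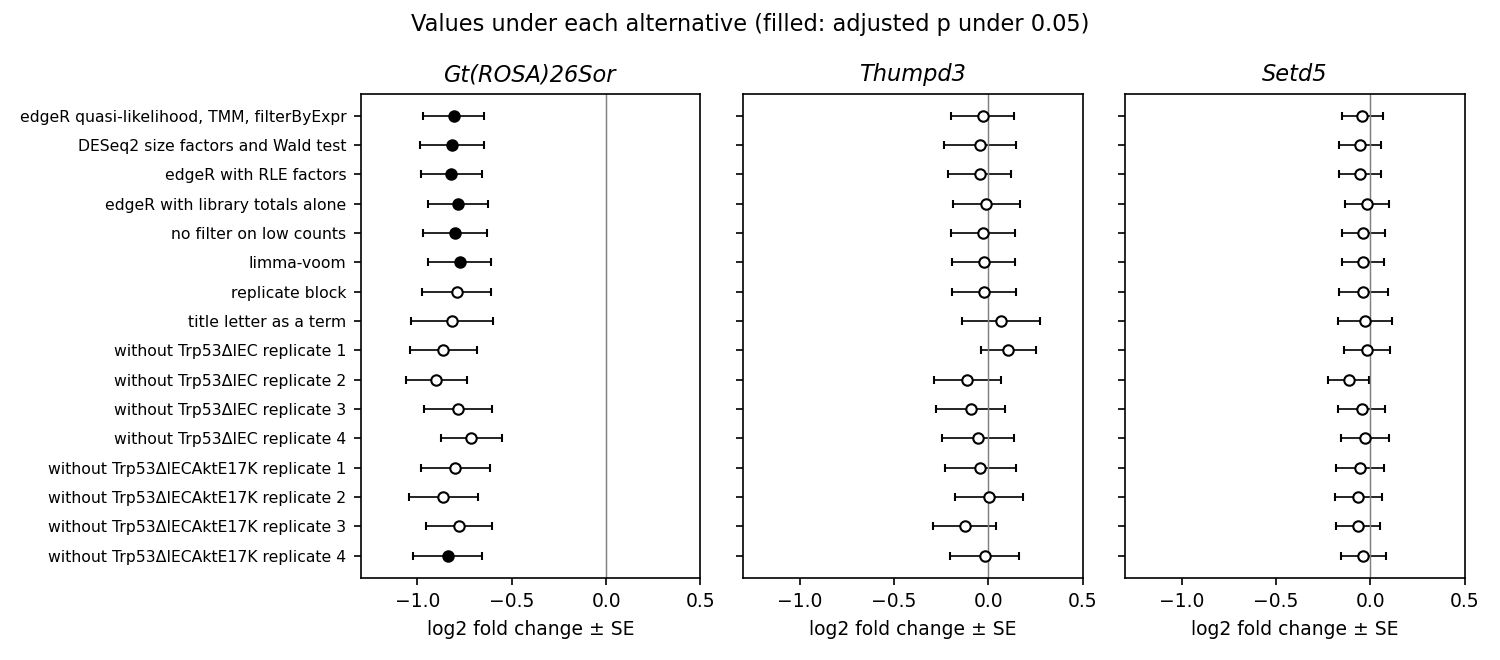
The log2 fold change (points) and SE (bars) of the 3 genes in the reported fit and in 15 alternatives, filled where the gene was called. Gt(ROSA)26Sor lies between -0.90 and -0.71 throughout, and Thumpd3 and Setd5 lie near 0.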

How the data were processed

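RNA from 8 tumours (4 per genotype, 1 per mouse per the series design) was prepared with the RNeasy Mini Kit and the TruSeq mRNA v2 kit, per the labels' protocols. The authors deposited counts of reads per Ensembl gene for each tumour, as raw numbers. Without roles or order, mm10, HTSeq 0.6, STAR 2.3.0, CASAVA 1.8.2, DESeq2 1.8.1 and SAMtools 1.2 stand in the submitters' processing notes. Which annotation release and strand setting the counting used is not given in the sources used here. The 5 closing lines of each table were left out: reads in no feature made up 9.74% to 11.7% and reads ambiguous between genes 1.93% to 2.32% of uniquely aligned reads. Symbols, positions and exons came from GENCODE M21, which held 36602 of 38355 identifiers (95.4%).

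Genes were tested with edgeR 4.0.16 in R 4.3.3 (filterByExpr, TMM, robust quasi-likelihood F-test, group as the only term) and p-values adjusted by Benjamini-Hochberg over 16539 genes. The script was tested on simulated data. Alternatives used DESeq2 1.42.0, limma-voom 3.58.1, other scalings, no filter, added terms, and each tumour left out. Named genes were the 3 members, Trp53 and Akt1. They also included called neighbours within 500 kb or else up to 5 nearest per side, up to 4 called genes per list or else the 2 with the smallest p, and the 5 most correlated genes per member. The members, lists and rules were chosen with earlier results of these data known. P-values refer to variation between mice. Reads are not molecules, so counting errors are lower limits.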

Additional observations from a re-analysis of the deposited data

Results flagged for a closer look

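For 48 named genes and 3 ratios, the highest or lowest tumour of each group was compared with the other 3, which made 102 comparisons. In 13 of them the gap to the nearest tumour exceeded the 95% critical value of Dixon's ratio for 4 samples (0.829). Chance flags about 1 in 20 groups, but 5 of the 13 are in genes chosen for varying like Setd5 or Thumpd3, so gaps in the same tumours follow from that choice, and 1 rests on a single read. The other 7 follow with them. In Trp53ΔIEC replicate 2, Setd5 was at 118.2 CPM, against 143.0 to 146.4 CPM in the rest of the group. Among genes that vary like Setd5, Impa2 was at 10.9 CPM in that tumour against 16.9 to 17.2 CPM, and at 22.9 CPM in Trp53ΔIECAktE17K replicate 3 against 17.4 to 18.2 CPM, and ENSMUSG00000090663 was at 84.9 CPM in Trp53ΔIEC replicate 2 against 102.3 to 105.8 CPM. Among genes that vary like Thumpd3, Top1mt was at 33.7 CPM in Trp53ΔIEC replicate 1 against 16.7 to 18.5 CPM, and Mtpap at 65.9 CPM in Trp53ΔIECAktE17K replicate 3 against 44.0 to 46.7 CPM. The neighbour Srgap3 was at 19.9 CPM in Trp53ΔIEC replicate 1 against 4.70 to 6.20 CPM. That tumour was also high in Cnn1 (16.8 against 10.3 to 11.3 CPM), Des (22.6 against 13.0 to 14.6 CPM) and Acta2 (201.6 against 132.4 to 139.5 CPM). N6amt1 was at 17.1 CPM in Trp53ΔIECAktE17K replicate 1 against 12.7 to 12.8 CPM, Tnni3 at 4.59 CPM in Trp53ΔIEC replicate 2 against 2.95 to 3.19 CPM, and Crp at 0.0423 CPM, which is 1 read, in Trp53ΔIECAktE17K replicate 1 against 0 in the other 3, a gap that any single read gives. Gt(ROSA)26Sor and its ratios gave no such gap.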

How the results depend on the processing

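Gt(ROSA)26Sor kept its direction in 15 of 15 alternatives. Its call was lost with the replicate block (log2 fold change -0.79), with the title letter as a term (-0.82) and in 7 of 8 fits that left out 1 tumour (range -0.90 to -0.71). Thumpd3 changed sign with the title letter as a term (0.069), without Trp53ΔIEC replicate 1 (0.107) and without Trp53ΔIECAktE17K replicate 2 (0.005). Its range with 1 tumour left out was -0.13 to 0.11, and that of Setd5 was -0.11 to -0.02. The number of genes called, 694 (569 higher and 125 lower), was 2169 with DESeq2 (1416 and 753), 50 with the replicate block, 96 with the title letter and 74 to 949 with 1 tumour left out. DESeq2 called 2 genes of the SETD5 list, where edgeR called 0, and 2 genes of the transgene locus list, where edgeR called 1. The latter list had 0 calls with the replicate block and with the title letter, and 0 to 1 with 1 tumour left out. A window of 1 Mb around the locus held 1 called gene instead of 0. Group differences in the log2 ratios with 1 tumour left out ran from -0.83 to -0.68 for Gt(ROSA)26Sor over Setd5, from -0.95 to -0.66 over Thumpd3, and from -0.05 to 0.11 for Thumpd3 over Setd5. The cause of these changes was not tested. Replicate numbers appear in both groups, but same-numbered tumours did not deviate together (correlations of -0.24 to 0.01, and no tumour correlated best with its own number). The block is therefore given only as 1 of the 15 alternatives.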
